A study of Mus musculus with 6 samples.

Results

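The genes described here encode 10 enzymes of mitochondrial fatty acid beta-oxidation, namely Cpt1a, Cpt2, Acadl, Acadm, Acadvl, Hadha, Hadhb, Echs1, Etfb and Etfdh. They were taken as a named list, and every array probe set annotated to exactly 1 of these genes was kept. All 10 genes had at least 1 such probe set, 15 in all, out of 22626 probe sets tested and 12393 genes named by at least 1 of them. Expression was measured in the muscle of 3 TFEB KO mice and 3 wild-type (WT) mice, all C57BL/6 and 1 month old, with 1 Affymetrix array of biotin-labelled cRNA made from the total RNA of each mouse. The KO mice carried a floxed Tcfeb gene (the older name of mouse Tfeb) and a Cre transgene driven by MLC1f, a fast myosin light chain promoter active in muscle fibers, so the deletion is directed to fibers and not to the other cells of the tissue. The labels give the controls as WT. Neither the labels nor the main text of the paper says whether they carried the floxed allele or the transgene, or from which muscle the RNA came. The mice of a group were separate animals, and their arrays are called KO 1 to KO 3 and WT 1 to WT 3 here, always listed in that order. The values are log2 expression values made by the authors with RMA, which corrects background, normalizes between arrays and summarizes the probes of each probe set.

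Beta-oxidation shortens a fatty acid inside the mitochondrion, removing an acetyl-CoA unit in each round and passing electrons to the respiratory chain. Long-chain fatty acids enter through the carnitine shuttle, and each round then runs through an acyl-CoA dehydrogenase, a hydratase, a second dehydrogenase and a thiolase. Oxidative muscle fibers and the heart hold large amounts of these enzymes, and in many tissues their genes are under the control of PPAR and ERR nuclear receptors with the coactivator PGC1α. TFEB is a transcription factor of lysosomal and autophagy genes that binds CACGTG-containing elements, and the comparison of the 2 groups asks which muscle genes depend on it.

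Tfeb itself was read at 7.10, 7.23 and 7.04 in the KO arrays, against 8.61, 8.55 and 8.96 in the WT arrays. It was 2.99-fold lower in KO muscle (log2 fold change -1.58, SE 0.126, adjusted p = 0.0079 from limma), and no source used here places its single probe set inside or outside the deleted stretch. Markers of skeletal muscle fibers were high in every array, with a mean level of 13.78 to 13.85 in KO arrays and 13.84 to 13.93 in WT arrays over 10 of 11 listed genes, and 0 of them passed the test. Pearson correlations were 0.992 to 0.9967 between arrays of the same group and 0.9889 to 0.9934 between arrays of different groups. A gene or probe set is called here when its limma p, two-sided and adjusted over all 22626 probe sets by the Benjamini-Hochberg method, lies under 0.05.

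The expression of 9 of the 10 beta-oxidation genes was lower on average in TFEB KO muscle than in WT muscle, by small amounts, and 0 of them were called. The lowest values relative to WT were those of Echs1 (-0.44), Hadha (-0.35) and Etfb (-0.34), while Cpt1a (0.01) and Cpt2 (-0.04), the enzymes of the carnitine shuttle, lay closest to 0. The median log2 fold change over the 10 genes was -0.17 (quartiles -0.31 and -0.09), that is 10.8% below WT, against a median of -0.01 over all genes. Among all genes, 53.4% lay below 0. The shares over all genes or probe sets given here are not matched for level. Of the 10 genes, 9 had a mean level of at least 10, against 11.6% of all genes. Of the 15 probe sets, 0 were called, against 1.6% of all probe sets. At an unadjusted p under 0.05, 3 of the 15 were lower in KO muscle, against 9.4% of all probe sets, and 0 were higher, against 7.81%. The KO arrays all lay below the WT arrays for 4 of the 15 probe sets, against 13.3% of all probe sets, and above them for 0, against 9.77%, and for the other 11 the groups overlapped. With 3 arrays against 3 an exact permutation test cannot give a two-sided p below 0.10, so single genes were tested with limma alone.

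**Figure D1:**
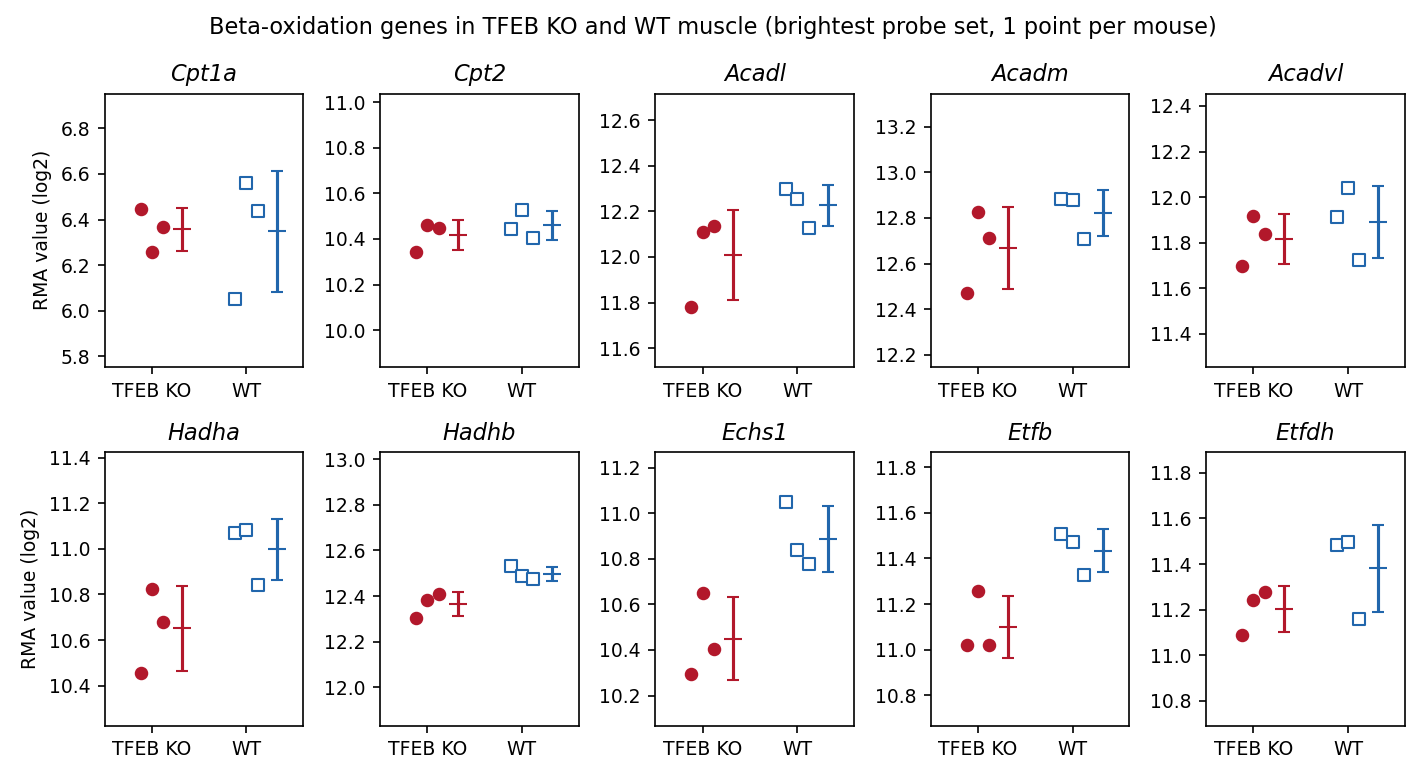
RMA values (log2, vertical axes, each panel spanning the same range) of the brightest probe set of each of the 10 genes in the 3 TFEB KO mice (filled circles) and the 3 WT mice (open squares), with the mean and SD beside them. The KO points lie below all WT points in the panels of Hadha, Hadhb, Echs1 and Etfb, and overlap with them in the other 6.

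The promoters of these genes were read from RefSeq (GRCm38.p6) as windows of 300 bases, from 250 bases before to 50 bases after the start that the promoter table uses, for all 10 genes. For Cpt1a this start lies inside the annotated gene, downstream of its outermost start. The core of the TFEB element, CACGTG, was found in 0 of the 10 windows, against 7.15% of 32851 windows over all genes, and the longer TCACGTGA in 0, against 0.974%. At such shares 10 windows are too few to show that the element is lacking. The paper searched a longer upstream stretch for putative TFEB sites and reported them in most of the genes lower in its KO muscle, so the searches differ. The nuclear receptor hexamer AGGTCA was present on one strand or the other in 4 of 10 windows, against 16.3% of all windows, and the longer ERR element TCAAGGTCA, which contains AGGTCA, in 0, against 0.423%. Both strands were searched for each motif, and a match describes the letters only. These 4 matches are shown because the receptors that read this hexamer are among the regulators described further on. Each is given along the strand of its gene, with up to 12 bases on either side and the motif or its reverse complement in capitals.
Cpt1a, chr19:3323195-3323224, plus strand: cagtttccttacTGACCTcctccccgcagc
Acadvl, chr11:70015498-70015527, minus strand: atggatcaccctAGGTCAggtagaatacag
Acadm, chr3:153944875-153944893, minus strand: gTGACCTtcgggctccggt
Echs1, chr7:140116487-140116516, minus strand: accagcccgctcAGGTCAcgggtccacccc

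The carnitine shuttle is formed by Cpt1a, an outer membrane enzyme that joins long-chain acyl groups to carnitine and is the form best known from liver, and Cpt2, which returns them to CoA inside the mitochondrion. Cpt1a was at 6.45, 6.26 and 6.37 in the KO arrays, against 6.05, 6.56 and 6.44 in the WT arrays. The 3 KO values lay within the range of the WT values, and the difference was 0.01 (95% confidence interval -0.31 to 0.33, adjusted p = 0.985 from limma). A second, dimmer Cpt1a probe set read 5.73, 5.03 and 5.56 in KO muscle and 4.72, 5.33 and 5.08 in WT muscle, a difference of 0.39 (95% confidence interval -0.08 to 0.87, adjusted p = 0.383), and the faintest of its 3 sets was near the bottom of the scale with a difference of 0.08 (adjusted p = 0.801). The names of both dimmer probe sets end in _x_at, by which Affymetrix marks sets with probes that may also bind other transcripts. Cpt1b, the form of the enzyme typical of muscle, has no probe set of its own here.

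Cpt2 was at 10.34, 10.46 and 10.45 in KO muscle, against 10.44, 10.53 and 10.40 in WT muscle. These groups overlapped, with a difference of -0.04 (95% confidence interval -0.25 to 0.16, adjusted p = 0.855), the narrowest interval but one among the brightest probe sets. Its dimmer probe set, another _x_at set with a mean level of only 3.64, differed by 0.08 (adjusted p = 0.839).

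The first step of each round is carried out by acyl-CoA dehydrogenases that differ in the chain length they prefer, very long for Acadvl, long for Acadl and medium for Acadm. All 3 were lower on average in KO muscle, in order of Acadl, Acadm and Acadvl, and in all 3 the groups overlapped. Acadl was at 11.78, 12.11 and 12.13 in KO muscle, against 12.30, 12.25 and 12.13 in WT muscle, with a difference of -0.22 (95% confidence interval -0.49 to 0.05, adjusted p = 0.398). KO 1 was well below the other 5, which lay within a narrow band. The dimmer Acadl probe set, with a mean level of only 4.17, gave -0.17 (adjusted p = 0.608). Acadm was at 12.47, 12.83 and 12.71 in KO muscle and at 12.88, 12.88 and 12.71 in WT muscle, a difference of -0.15 (95% confidence interval -0.42 to 0.11, adjusted p = 0.557), again with KO 1 lowest. Acadvl was at 11.70, 11.92 and 11.84 in KO muscle and at 11.91, 12.04 and 11.72 in WT muscle, and the difference of -0.08 (95% confidence interval -0.33 to 0.18, adjusted p = 0.789) was smaller than the spread between WT mice (SD 0.159).

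The mitochondrial trifunctional protein is built from Hadha, which carries the long-chain hydratase and hydroxyacyl-CoA dehydrogenase activities, and Hadhb, which carries the thiolase. Hadha was at 10.45, 10.82 and 10.68 in KO muscle, against 11.07, 11.08 and 10.84 in WT muscle. The highest KO array lay just under the lowest WT array, and the mean was 1.27-fold lower in KO muscle (log2 fold change -0.35, SE 0.123, 95% confidence interval -0.63 to -0.06, unadjusted p = 0.0216, adjusted p = 0.201). Hadhb was at 12.31, 12.38 and 12.41 in KO muscle and at 12.53, 12.49 and 12.47 in WT muscle. Its groups did not overlap either, but the difference was only -0.13 (95% confidence interval -0.33 to 0.06, adjusted p = 0.484), and both groups were tight (SD 0.0535 in KO and 0.0301 in WT muscle). A dimmer Hadhb probe set of the _x_at kind went the other way, at 10.46, 10.20 and 10.82 in KO muscle and 10.27, 10.32 and 10.64 in WT muscle (0.08, adjusted p = 0.854). Neither subunit was called, and the 2 probe sets of Hadhb did not share a direction.

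Hadha and Hadhb lie head to head on chromosome 5 with 272 bases between their gene starts, and their promoter windows overlap by 228 bases. The shared stretch is shown because both genes of the pair had KO arrays below all WT arrays on the brightest probe set. It held none of the 4 motifs searched and is printed along the plus strand, from the Hadha side to the Hadhb side, with no part in capitals.
Hadha and Hadhb, chr5:30155003-30155230, plus strand: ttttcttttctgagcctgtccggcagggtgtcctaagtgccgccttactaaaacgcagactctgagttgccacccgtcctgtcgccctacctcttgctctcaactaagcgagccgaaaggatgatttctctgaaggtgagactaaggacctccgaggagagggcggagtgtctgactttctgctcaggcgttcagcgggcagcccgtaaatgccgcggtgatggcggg

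Echs1, the short-chain enoyl-CoA hydratase of the matrix, had the lowest value of the 10 genes relative to WT. It was at 10.29, 10.65 and 10.40 in KO muscle, against 11.05, 10.84 and 10.77 in WT muscle. All KO arrays lay below all WT arrays, and the mean was 1.35-fold lower in KO muscle (log2 fold change -0.44, SE 0.123, 95% confidence interval -0.72 to -0.15, unadjusted p = 0.0070). Adjusted over all probe sets its p was 0.124, the smallest among the 15. Under the other settings tried, the adjusted p of Echs1 ran between 0.0814 and 0.370.

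Electrons taken by the acyl-CoA dehydrogenases pass to the electron transfer flavoprotein, whose beta subunit is Etfb, and from there through Etfdh, an inner membrane oxidoreductase, to ubiquinone. Etfb was at 11.02, 11.26 and 11.02 in KO muscle, against 11.51, 11.47 and 11.33 in WT muscle. The groups did not overlap, and the mean was 1.26-fold lower in KO muscle (log2 fold change -0.34, SE 0.105, 95% confidence interval -0.58 to -0.095, unadjusted p = 0.0120, adjusted p = 0.156). Etfdh was at 11.09, 11.24 and 11.28 in KO muscle and at 11.49, 11.50 and 11.16 in WT muscle, where WT 3 was below 2 of the KO arrays. The Etfdh difference was -0.18 (95% confidence interval -0.45 to 0.09, adjusted p = 0.496). Etfa, the alpha subunit that pairs with Etfb, is not one of the 10 genes and is named after its value was seen, at -0.19 (adjusted p = 0.405) with overlapping groups.

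**Figure D2:**
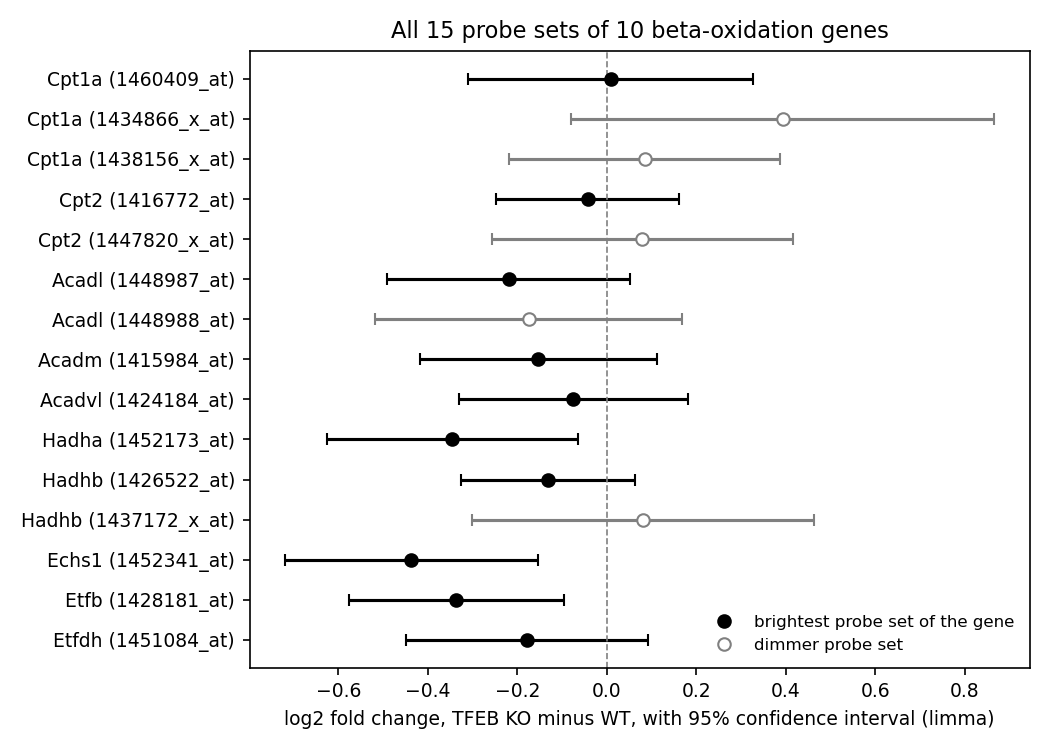
Log2 fold change, TFEB KO minus WT (horizontal axis), with its 95% confidence interval from limma for all 15 probe sets of the 10 genes, with filled points for the brightest probe set of a gene and open points for dimmer ones. The intervals of Hadha, Echs1 and Etfb end below 0, and 0 of the 15 reaches -1.

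The intervals limit how large a difference could have gone uncalled. Among the 10 brightest probe sets the lowest bound was -0.72, for Echs1, and the highest was 0.33, for Cpt1a, so 0 of the intervals reached a log2 fold change of -1. The dimmer probe sets gave other values, with 4 of 5 above 0 and a median of 0.08, and 0 of these 5 had an unadjusted p under 0.05. Of these 5, 4 had a mean level under 6, the limit used here for dim probe sets. The exception was that of Hadhb, at 10.45. The highest bound among the 5 was 0.87, for the second Cpt1a probe set. In simulated data with known changes, limma called 15.5% of log2 changes of 0.5 and 85.7% of those of 1. Differences of the size seen here would thus mostly go uncalled.

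Within each group the same arrays were low for most of the 10 genes. Apart from Cpt1a, KO 1 held the lowest KO value of all the other 9 genes, and WT 3 held the lowest WT value of the same 9. Set against the mean of the WT arrays, the median over the 10 genes was -0.32, -0.12 and -0.10 in the KO arrays, and 0.07, 0.06 and -0.11 in the WT arrays. WT 3 thus lay level with KO 2 and KO 3, and KO 1 lay apart from them. Without KO 1 the median log2 fold change of the 10 genes was -0.10, and without WT 3 it was -0.24. Echs1 and Etfb kept an unadjusted p under 0.05 whichever array was left out, while Hadha lost it without KO 1, without WT 1 and without WT 2. Without WT 3, Etfdh also had an unadjusted limma p under 0.05, as the second Cpt1a probe set did without KO 2 and without WT 2 (higher in KO muscle), and 0 of the 15 probe sets were called in any of these fits.

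Markers of other cells and of fiber types differed between the same arrays, and in bulk tissue fewer cells of a type and less RNA per cell cannot be told apart. Contractile genes of slow, oxidative fibers were below 0 for all 10 listed genes, with a median log2 fold change of -0.58 and 0 called. Set against WT, the median per array was -0.76, -0.45 and -0.52 in the KO arrays and 0.28, 0.42 and -0.74 in the WT arrays. KO 1 and WT 3, the lowest of their groups for the beta-oxidation genes, were also the lowest for this list. Myh7, the slow myosin heavy chain, was at 10.81, 11.07 and 11.17 in KO muscle and at 12.81, 12.87 and 11.57 in WT muscle (-1.40, adjusted p = 0.069), Myl3 was at -0.90 (adjusted p = 0.098) and Myl2 at -0.66 (adjusted p = 0.128), both of them myosin light chains of slow fibers. The summed level of the list, given as the mean over its genes, ran from 10.39 to 10.78 in KO arrays and from 10.60 to 11.64 in WT arrays. Without WT 3 the median of the slow fiber list was -0.96 and 3 of its genes were called (Myh7, Myl2 and Tnni1). In that fit 80 probe sets were called over the whole array. With any other single array left out, 0 genes of the list were called and its median ran from -0.64 to -0.41. With all arrays kept, Tnni1 had an adjusted p of 0.557 from limma. The part of fiber type in the values of the beta-oxidation genes was not tested.

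Fast fiber markers lay at the top of the scale, with a mean level of 14.35 to 14.43 in KO arrays and 14.41 to 14.47 in WT arrays and a median difference of 0.02 over 11 genes (-0.02 to 0.04 with 1 array left out). Of these, 0 were called, with Myh2, the myosin of fast oxidative fibers, at 13.03, 13.59 and 13.44 in KO muscle and 13.95, 13.97 and 13.84 in WT muscle (-0.57, adjusted p = 0.098). Atp2a1 (-0.13, adjusted p = 0.506) and Actn3 (-0.10, adjusted p = 0.596) were the next by p. How fully differences are read for fast fiber markers this close to the largest value, 14.93, was not tested. Within the separate list of skeletal muscle fiber markers, the smallest p belonged to Ryr1, the calcium release channel (-0.52, adjusted p = 0.109). It was followed by Myot (0.17, adjusted p = 0.372) and Cacna1s (-0.26, adjusted p = 0.403).

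Macrophage markers were higher in KO muscle for all 17 genes, 8 of them called, with a median of 1.02 and a mean level of 7.74 to 8.35 in KO arrays and 6.58 to 7.22 in WT arrays. The 6 called genes with the smallest p were Mpeg1 (1.75), Lyz2 (1.45), Tyrobp (1.34), Cd163 (1.09), Fcgr3 (1.07) and Itgam (0.65), at adjusted p-values of 0.017 to 0.045. Endothelial markers were lower in KO muscle for all 13 genes, 6 of them called (Kdr, Vwf, Pecam1, Egfl7, Flt1 and Esam, -0.57 to -0.89), with a median of -0.57 and a mean level of 7.30 to 7.52 in KO arrays and 7.90 to 8.05 in WT arrays. Of all genes, 0.702% were called lower in KO muscle and 0.871% higher. With any 1 array left out, 0 to 4 macrophage genes (0 without KO 2 or WT 2) and 0 to 3 endothelial genes (0 without WT 1 or WT 2) were called, while the list medians ran from 0.80 to 1.19 and from -0.63 to -0.50.

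Adipocyte markers, 9 of 12 of them measured, were high in KO 1, with a median against the WT mean of 1.03 there and -0.03 and -0.26 in the other KO arrays, and 0.28, -0.10 and -0.22 in the WT arrays. The mean level over this list ran from 7.72 to 8.96 in KO arrays and from 7.70 to 8.14 in WT arrays, and 0 genes were called on the brightest probe set. The median of the list was 0.19, and was -0.14 without KO 1, 0.42 without KO 2, 0.47 without KO 3 and 0.30 without WT 1. Adipoq, the adiponectin gene, was at 11.90, 9.90 and 9.90 in KO muscle and at 10.35, 9.60 and 9.22 in WT muscle (0.84, adjusted p = 0.463), Cidec, a lipid droplet protein, was at 0.67 (adjusted p = 0.543) and Car3 at -0.19 (adjusted p = 0.347). The dimmer Car3 probe set was called, lower in KO muscle (-0.77, adjusted p = 0.028). Unlike Adipoq, Car3 did not stand out in KO 1. Its brightest probe set read 13.77, 13.69 and 13.80 in KO arrays and 13.94, 13.85 and 14.05 in WT arrays. Which cells of the tissue gave the Car3 signal was not tested. Of 7 Schwann cell and myelin genes measured, 1 was called, Mbp, the myelin basic protein, which was lower in KO muscle (-1.79, adjusted p = 0.036), and the median of this list was -0.28. The call of Mbp was lost without KO 2 and without each of the WT arrays. The mean level of the list was 6.87 to 7.04 in KO arrays and 7.34 to 7.45 in WT arrays. The part of these cells in the values of the beta-oxidation genes was not tested.

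**Figure D3:**
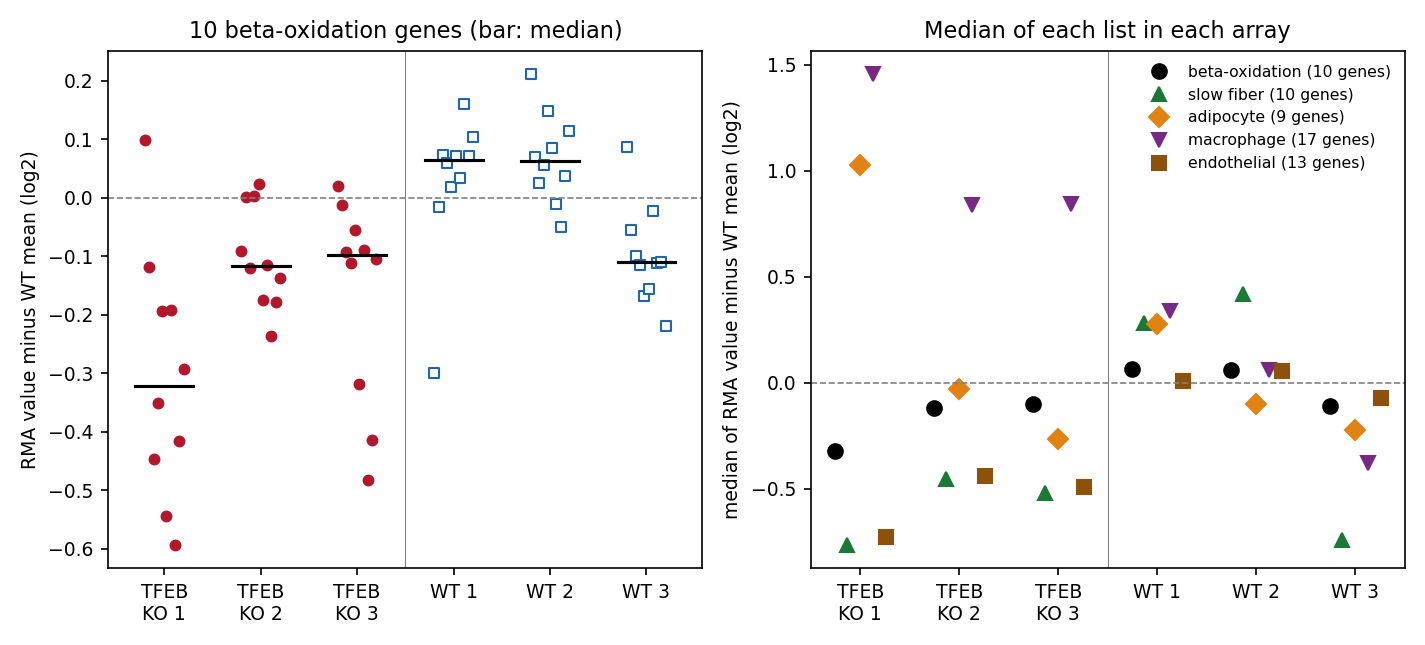
Left, RMA value minus the WT mean (log2, vertical axis) of each of the 10 genes in each array, with TFEB KO arrays as filled circles, WT arrays as open squares and the median as a bar. Right, the same median for the 10 genes and for 4 marker lists in each array, where KO 1 is low for beta-oxidation (-0.32) and slow fiber genes (-0.76) and high for adipocyte (1.03) and macrophage genes (1.46).

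Genes of a wider list, of mitochondrial beta-oxidation and related steps such as leucine breakdown by Ivd, were also mostly below 0. Of 22 listed, 19 had a probe set of their own (Cpt1b, Cpt1c and Acsl1 had none), 17 of the 19 were below 0 and the median was -0.18, or -0.12 without KO 1. Again 0 were called. At an unadjusted p under 0.05, 4 were lower in KO muscle and 1 was higher, against 8.66% and 8.49% of all genes, and 9 had KO arrays below all WT arrays and 1 had them above, against 12.9% and 10.8% of all genes. Ivd, the isovaleryl-CoA dehydrogenase of leucine breakdown, was at 9.36, 9.88 and 9.69 in KO muscle, against 10.44, 10.27 and 10.28 in WT muscle. It was lower in KO muscle but not called (log2 fold change -0.68, SE 0.139, adjusted p = 0.055), and its dimmer probe set gave -0.66 (adjusted p = 0.051). Acads, the short-chain acyl-CoA dehydrogenase, was at 9.20, 9.04 and 9.12 in KO muscle and 9.42, 9.47 and 9.33 in WT muscle (-0.29, adjusted p = 0.163). Eci2, an enoyl-CoA isomerase, went the other way at 9.53, 9.61 and 9.71 in KO muscle and 9.31, 9.42 and 9.28 in WT muscle (0.28, adjusted p = 0.182). Hadh, the short-chain hydroxyacyl-CoA dehydrogenase and named after its value was seen, showed a difference of 0.003 (adjusted p = 0.992) on its brightest probe set, an _x_at set. A dimmer Hadh probe set not of that kind gave -0.15 (adjusted p = 0.402), with all KO arrays below all WT arrays. The faintest, again an _x_at set, gave 0.03 (adjusted p = 0.914).

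Peroxisomes run a separate beta-oxidation for very long and branched chains. Of this list 16 genes were analysed here, and the median was -0.07, with 11 below 0 and 0 called. At an unadjusted limma p under 0.05, 1 gene was lower in KO muscle and 0 were higher, against 8.66% and 8.49% of all genes. This gene was Acox3, an acyl-CoA oxidase of branched chains, with a dim probe set (mean level 5.33). Acox3 was at 5.02, 5.34 and 4.90 in KO muscle and 5.68, 5.54 and 5.52 in WT muscle (-0.49, adjusted p = 0.099). Hsd17b4, the peroxisomal D-bifunctional protein, was at -0.20 (adjusted p = 0.357) and Ehhadh, the L-bifunctional protein, at -0.23 (adjusted p = 0.517).

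Among the regulators of fatty acid oxidation, 18 of 21 were measured (Ncor1, Prkaa1 and Prkaa2 had no probe set of their own), 0 were called (0.702% of all genes lower, 0.871% higher), 3 were lower and 1 higher at an unadjusted p under 0.05 (8.66% and 8.49% of all genes), and the median was -0.03 (-0.07 to -0.0024 with 1 array left out). Without KO 3, 1 of them was called, Ppargc1a. Ppara, the nuclear receptor PPARα, was at 6.33, 6.80 and 6.69 in KO muscle, against 7.25, 7.06 and 7.47 in WT muscle. All its KO arrays lay below the WT arrays, and the mean was 1.57-fold lower (log2 fold change -0.65, SE 0.151, adjusted p = 0.078). Ppargc1b, the coactivator PGC1β, was at 8.42, 8.17 and 8.32 in KO muscle and 8.54, 8.81 and 8.93 in WT muscle (-0.46, adjusted p = 0.111). Ppargc1a, which encodes PGC1α, was at 8.61, 8.55 and 9.31 in KO muscle and 9.24, 9.33 and 9.36 in WT muscle (-0.49, adjusted p = 0.238), and its 5 probe sets lay between -0.26 and -0.49, with a lowest adjusted p of 0.067.

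Known PPAR targets of fatty acid use lay on both sides of 0, 9 below it and 5 above. Of these 14 genes, 0 were called, and 4 were higher and 0 lower at an unadjusted p under 0.05, against 8.49% and 8.66% of all genes. The median of -0.03 changed sign, to 0.06, without KO 1, and to 0.07 without WT 2. Pdk4, the kinase that switches off pyruvate dehydrogenase, was at 12.69, 12.85 and 13.07 in KO muscle and 11.80, 12.71 and 12.01 in WT muscle (0.70, SE 0.221, adjusted p = 0.161), with 1 WT array above the lowest KO array. Cd36, a fatty acid transporter, was at 11.55, 11.52 and 11.72 in KO muscle and 11.42, 11.23 and 11.23 in WT muscle (0.30, adjusted p = 0.182). Plin2, which coats lipid droplets, was at 9.69, 9.28 and 9.08 in KO muscle and 8.85, 9.0 and 8.82 in WT muscle (0.46, adjusted p = 0.182). For Cd36 and Plin2 all KO arrays lay above all WT arrays. The lists are not separate classes. Slc25a20 and Mlycd also stand in the wider mitochondrial list and Ehhadh in the peroxisomal list, and the enzyme genes themselves are under PPAR control in many tissues. The difference between this list and the enzymes was not tested.

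**Figure D4:**
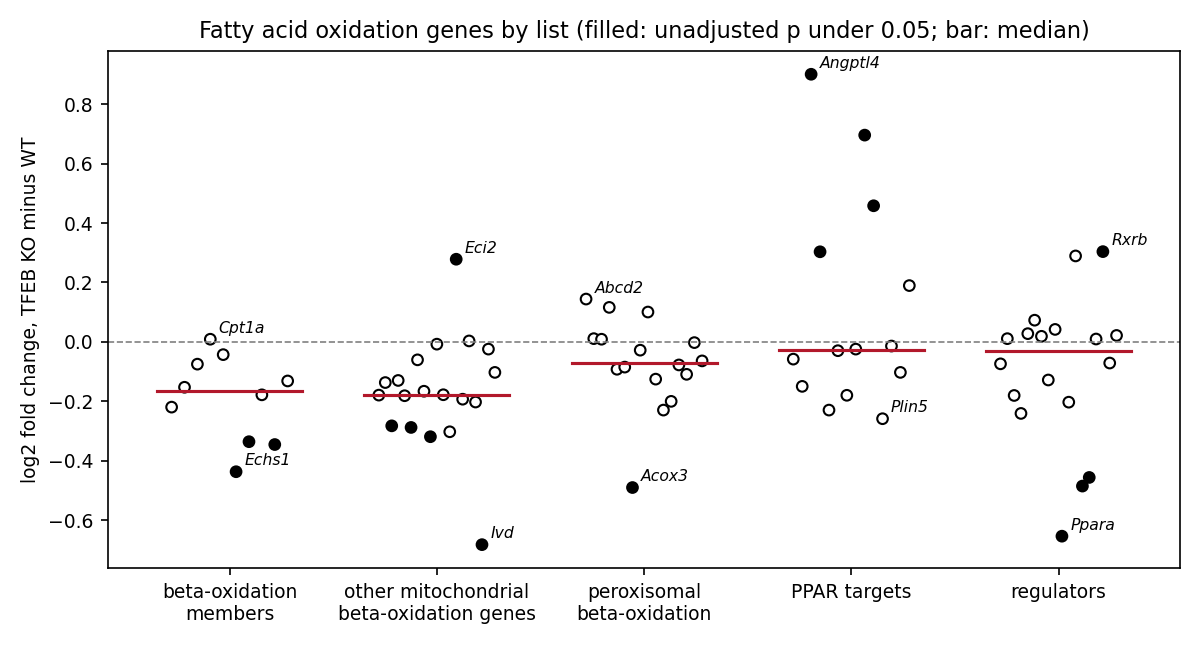
Log2 fold change, TFEB KO minus WT (vertical axis), of each gene (brightest probe set) in the 10 enzymes and in 4 further lists, with filled points for an unadjusted p under 0.05 and a bar at the median. The medians are -0.17 for the 10 enzymes, -0.18 for other mitochondrial genes, -0.07 for peroxisomal genes and -0.03 both for PPAR targets and for regulators, and 0 genes in the plot were called.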

How the data were processed

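Muscle RNA from 3 TFEB KO and 3 WT mice was measured on 1 array per mouse. The deposited values are log2 expression per probe set, which the authors computed with RMA through the R package affy, with versions and settings not given in the sources used here. RMA scales the arrays to each other, which largely hides any shift that most genes have in common. Arrays give no depth, and their number limits precision.

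The table holds 22690 probe sets, of which 64 are Affymetrix controls and were dropped. Gene names come from the annotation of the platform (20380 name 1 gene, 691 several and 1555 none), and 20351 were matched by Entrez ID to RefSeq genes, which changed 0 symbols. The comparison of KO with WT arrays used lmFit and eBayes of limma 3.58.1 (two-sided) in R 4.3.3, with Benjamini-Hochberg adjustment over 22626 probe sets. The paper's text names repeated-measures ANOVA, MANOVA and Student's test for the study as a whole and an FDR threshold for the arrays, and Student's test was tried as the methods' t-test. The value of a gene is that of its brightest probe set by mean over 6 arrays. Plots were drawn with matplotlib 3.10.9 and tables built with pandas 2.3.3 and NumPy 2.4.6 in Python 3.11.15, and the fit was tested on simulated data first. Other settings were a second quantile normalization, scaling to the 75th percentile, dim probe sets (mean under 6) left out, controls kept, array weights, trended and robust moderation, a minimum of 1.5-fold, a block for the replicate number, the average over a gene's probe sets, and each array left out in turn.

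The text names all 10 genes with every probe set, Tfeb, from each of 11 other lists up to 6 called genes with the smallest p (or 3 where 0 are called), and the 5 genes whose profile over the arrays is most like the mean of the 10. The members, lists and tests were chosen with earlier results of these data known. Promoter windows came from RefSeq (GRCm38.p6).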

Additional observations from a re-analysis of the deposited data

How the results depend on the processing

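Of the 15 beta-oxidation probe sets, 0 were called under each setting with an adjusted p, among them each array left out in turn, both rescalings, array weights and the replicate block. The methods' t-test called 3 of them without adjustment (Hadhb, Echs1 and Etfb) and 0 after it. The median log2 fold change of the 10 genes, by their brightest probe sets, stayed below 0, at -0.20 after a second quantile normalization, and from -0.24 to -0.10 with 1 array left out. Keeping controls, leaving out dim probe sets, trended and robust moderation, the replicate block and the t-test cannot change a fold change. Under these settings only the side of the threshold could move. With them included, single probe sets kept their direction and side of the threshold in 199 of 206 values over 14 settings. The exceptions were 4 probe sets whose differences were close to 0. Cpt1a was at -0.0069 with array weights and at -0.14 to 0.11 with 1 array left out, its faintest probe set at -0.043 to 0.22, the dimmer probe set of Cpt2 at -0.060 to 0.20 and that of Hadhb at -0.081 to 0.23. Over the whole array, 361 probe sets were called, 297 with the replicate block, 1 by the methods' t-test after adjustment and 3282 without it, and from 21 (without WT 1) to 438 (without KO 1) with 1 array left out. The cause was not tested. The labels number the replicates of both groups, and 3 arrays a group cannot settle whether the numbers pair the samples. Arrays with the same number had deviations correlated at 0.088, 0.048 and 0.265. The other pairs ran from -0.251 (KO 3 with WT 1) to 0.172 (KO 2 with WT 1), so KO 2 correlated better with WT 1 than with WT 2. The replicate block changed 0 calls among the beta-oxidation probe sets. With 3 arrays a group, an adjusted p above the threshold does not show that KO and WT levels were alike.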

Other observations

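The genes whose level over the 6 arrays was most like the mean of the 10 beta-oxidation genes, of 7673 genes with a mean level of at least 6, were Cyp2d22 (Pearson r = 0.996), Appbp2 (0.995), Ddt (0.994), Cep89 (0.993) and Kcnj8 (0.992). The mean of the 10 was 10.79, 10.99 and 10.93 in KO arrays and 11.12, 11.16 and 10.998 in WT arrays. Ddt, the D-dopachrome tautomerase, followed it with wider steps, at 8.90, 9.27 and 9.15 in KO arrays and 9.63, 9.64 and 9.31 in WT arrays (-0.42, adjusted p = 0.161 from limma). With 6 points in 2 groups, such correlations describe these arrays only, and the points share the group difference and the low KO 1 and WT 3.

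Angptl4, a secreted inhibitor of lipoprotein lipase and a PPAR target, was named after its value was seen. It was at 8.0, 7.47 and 7.25 in KO muscle and at 6.48, 7.46 and 6.08 in WT muscle, a log2 fold change of 0.90 (SE 0.332, adjusted p = 0.215 from limma), with WT 2 among the KO values. Pdk4 had the same array, WT 2, as its highest WT value.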
